A study of Homo sapiens with 12 samples.

Results

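The genes examined were AGO1, AGO2, AGO3, AGO4, DICER1, DROSHA, DGCR8, XPO5, TARBP2 and TNRC6B, the 10 core genes of the pathway that makes microRNAs (miRNAs) and puts them to work. They were chosen by name, with earlier results of these data known. Each was read from every probe set that the array's annotation gives to that symbol alone. Of the 10 genes, 9 had such a probe set, out of 19775 genes tested on the array. DGCR8 has no value here, because all 4 of its probe sets also list the miRNA gene that lies within it. The 9 genes were read by 32 probe sets, and the main value of each gene is that of its brightest probe set.

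A miRNA is cut from its transcript in the nucleus by the Microprocessor, which consists of the nuclease DROSHA and its RNA-binding partner DGCR8. The hairpin that results, the pre-miRNA, is carried to the cytoplasm by exportin-5 (XPO5), cut again by DICER1 with its partner TARBP2 (TRBP), and loaded as a single strand into an Argonaute protein (AGO1 to AGO4). The Argonaute finds the matching messenger RNA, and proteins of the TNRC6 (GW182) family then bring in the enzymes that shorten its tail and silence it. AGO2 is the Argonaute best known for cutting its target.

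All samples were PC9, a human lung adenocarcinoma line that depends on a mutant EGFR. One stable lentiviral line carried a GFP vector, described in the methods as a vector with a scrambled control hairpin, and the other expressed the miR371 precursor, called pre-miR-371 here. Each line was given DMSO or 2 μM the EGFR kinase inhibitor erlotinib for 24 h, which made 4 groups of 3 arrays: GFP vector DMSO, pre-miR-371 DMSO, GFP vector erlotinib and pre-miR-371 erlotinib. There was a single line of each kind, so what the hairpin did and what was peculiar to the line that carried it cannot be told apart. The labels do not say whether the 3 arrays of a group came from separate cultures, and the methods call replicates biological for the study as a whole without naming the arrays. A p-value here covers no more than the spread of these arrays. An array reads the RNA of a whole culture, so a change in every cell and a change in the mix of cells cannot be told apart.

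The hairpin of the miRNA that the second line was made to express is shown because such a hairpin is a substrate of the genes examined. It was matched by the older name of the miRNA and was not read from the construct. The mature strands are in capitals in the hairpin, and the seed (bases 2 to 8, which pair with the target) is in capitals in each mature miRNA. The sequences are those of RefSeq on GRCh38.p14, where the older name miR-371 is now miR-371a, and lie on the plus strand at chr19:53787675-53787741 (hairpin, 67 bases), chr19:53787680-53787699 (5p strand) and chr19:53787716-53787738 (3p strand).
hsa-mir-371a hairpin: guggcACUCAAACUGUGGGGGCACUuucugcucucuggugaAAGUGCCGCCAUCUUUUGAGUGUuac
hsa-miR-371a-5p: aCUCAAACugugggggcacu
hsa-miR-371a-3p: aAGUGCCGccaucuuuugagugu
The 5p strand starts at base 6 of the hairpin and the 3p strand at base 42. Neither seed was found in another of the 2370 human mature miRNAs of the table. The arrays read messenger RNA, and no value of the hairpin or of a mature miRNA is given here.

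The values are log2 expression values as the authors deposited them. Over the 12 arrays the median value was between 4.31 and 4.41, and the correlation between arrays of a group was between 0.9956 and 0.9975. Of 9 epithelial markers, 6 had a mean of at least 6, while 3 lung lineage markers (NKX2-1, NAPSA and SFTPB) did not. None of 4 leukocyte markers reached 6, and 1 of 6 fibroblast markers did (COL1A1). The upper quartile of the values was 6.77 to 6.92 in GFP vector DMSO arrays and 6.72 to 6.74 in pre-miR-371 DMSO arrays, so that small differences between the lines in DMSO depend on the scaling.

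**Figure D1:**
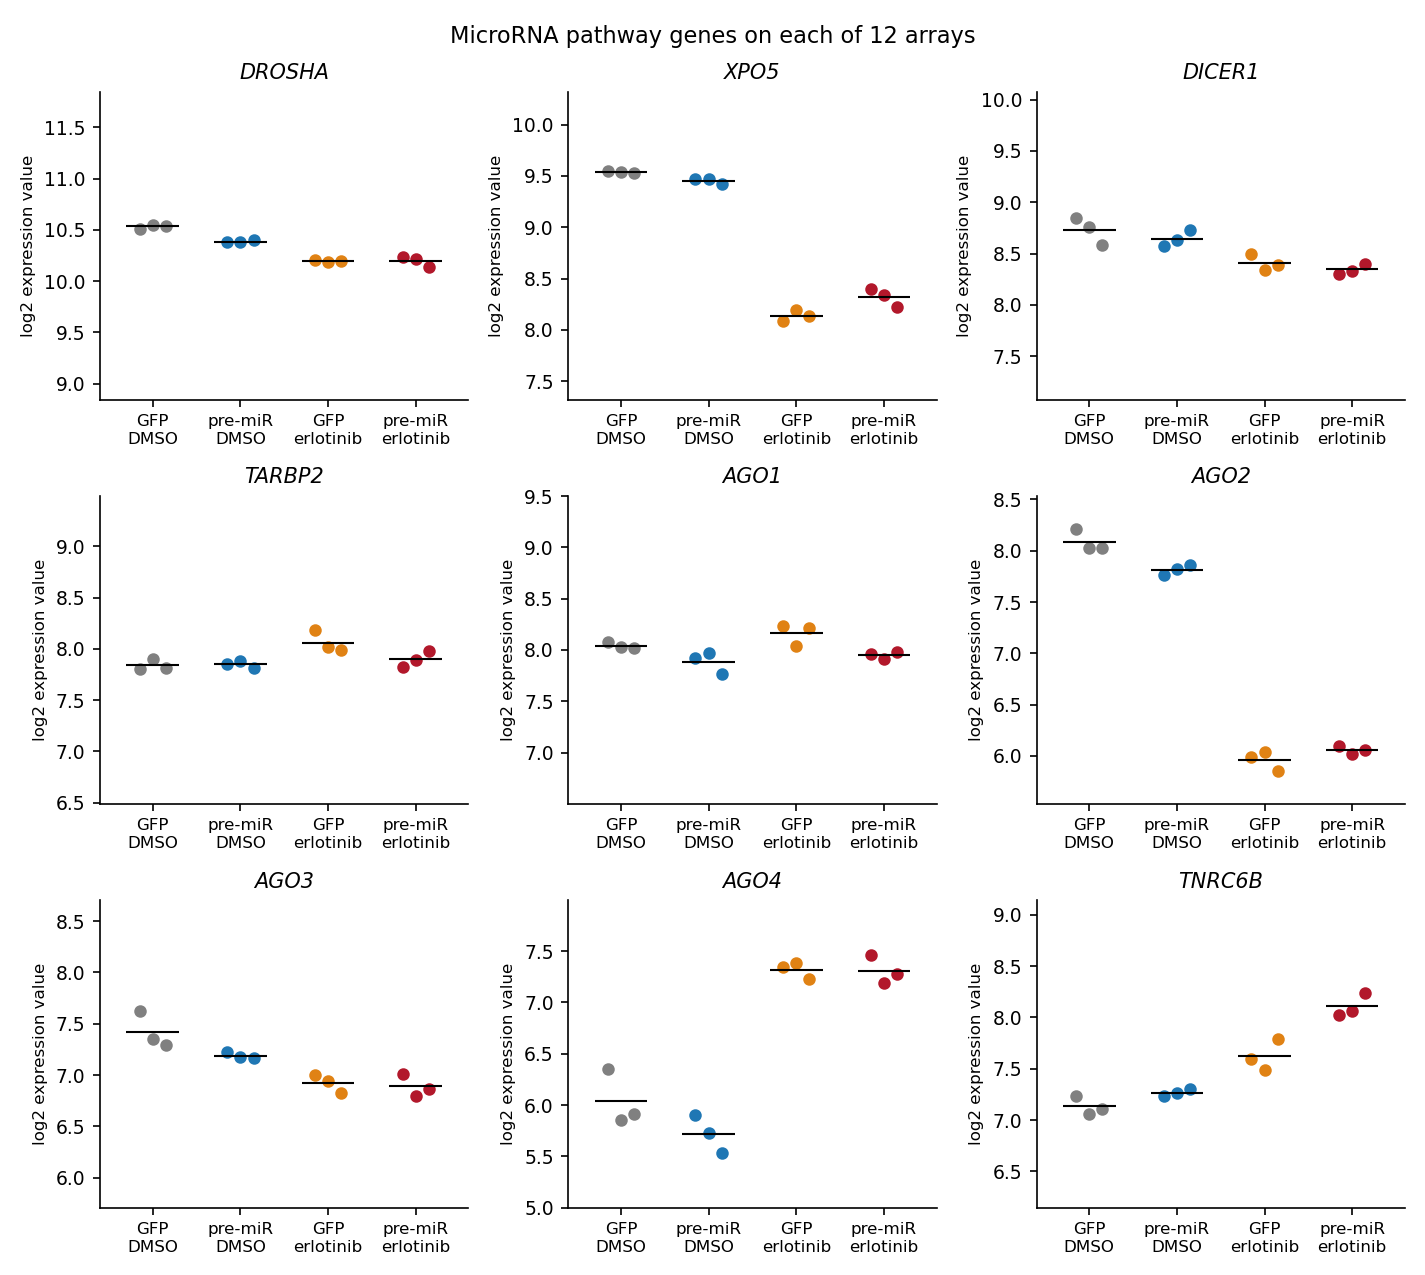
Log2 expression value (vertical axis) of each gene's main probe set on each of the 12 arrays, in the 4 groups on the horizontal axis, with a line at the mean of the 3 arrays. The vertical axes cover equal spans, each around its own centre, and the levels of different genes cannot be set against each other. AGO2 and XPO5 sit lower in both erlotinib groups and AGO4 and TNRC6B sit higher, while AGO1 stays within 7.77 to 8.24 on all arrays.

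Erlotinib lowered the transcripts of AGO2 and of the export factor XPO5 and raised those of AGO4 and TNRC6B, in both lines. In their main probe sets, DROSHA, DICER1 and AGO3 fell by smaller amounts in both lines, and AGO1 passed the test in neither line. With pre-miR-371 most other probe sets of DICER1 and AGO3 did not pass. TARBP2 rose with the GFP vector. With the GFP vector 3 of 9 genes rose and 5 fell at an adjusted p under 0.05 (limma, Benjamini-Hochberg adjustment over all genes), where 26.5% of all genes tested rose and 23.4% fell. With pre-miR-371 2 of 9 rose and 5 fell, where 24.8% of all genes rose and 22.2% fell. By the main probe set, a fold over 1.5 was also reached by AGO2, XPO5 and AGO4 in both lines and by TNRC6B with pre-miR-371, that is by 3 and 4 of the 9 genes, against 25.8% and 21.9% of all genes. The arrays of the groups did not overlap for 8 of 9 genes with the GFP vector (54.1% of all genes) and for 7 of 9 with pre-miR-371 (55.8% of all genes). The drug moved a large share of the transcriptome, and the counts of these genes have to be read against it. All 9 main probe sets had a mean of at least 6. When only genes with such a mean were tested, 82.4% (GFP vector) and 80.1% (pre-miR-371) were called in either direction. The number of the 9 genes called is near these shares and is no result about them as a set. The median log2 fold change of the 9 genes was -0.32 with the GFP vector and -0.19 with pre-miR-371, beside 0.00 and -0.03 for all genes.

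DROSHA, the nuclease of the Microprocessor, was read by a single probe set. Its log2 values were 10.51, 10.55 and 10.54 in GFP vector DMSO, 10.38, 10.38 and 10.40 in pre-miR-371 DMSO, 10.21, 10.19 and 10.19 in GFP vector erlotinib, and 10.24, 10.22 and 10.14 in pre-miR-371 erlotinib. Every erlotinib array was below every DMSO array. The fall was small: -0.34 ± 0.05 (standard error) on the log2 scale with the GFP vector (limma, adjusted p = 7.39e-05) and -0.19 ± 0.05 with pre-miR-371 (adjusted p = 0.00695). With pre-miR-371 the call was lost when quantile normalization was repeated on the values (-0.09, adjusted p = 0.129).

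XPO5, which carries the hairpin out of the nucleus, fell by more than 1 log2 unit in both lines. The log2 values were 9.55, 9.54 and 9.53 in GFP vector DMSO and 9.47, 9.47 and 9.42 in pre-miR-371 DMSO. With erlotinib they were 8.09, 8.19 and 8.13 with the GFP vector and 8.40, 8.34 and 8.22 with pre-miR-371. The DMSO and erlotinib arrays were more than 1 log2 unit apart, and the arrays of a group lay close together. Erlotinib changed XPO5 by -1.40 ± 0.06 with the GFP vector (0.379 of the DMSO level, limma adjusted p = 1.05e-09) and by -1.14 ± 0.06 with pre-miR-371 (0.455 of the DMSO level, adjusted p = 8.42e-09). All 3 probe sets of XPO5 fell in both lines, by -1.71 to -1.38 and by -1.34 to -1.14 on the log2 scale.

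DICER1, which cuts the loop off the hairpin, fell slightly. Its main probe set read 8.85, 8.76 and 8.58 in GFP vector DMSO, 8.57, 8.63 and 8.73 in pre-miR-371 DMSO, 8.49, 8.34 and 8.39 in GFP vector erlotinib, and 8.30, 8.33 and 8.40 in pre-miR-371 erlotinib. The change with erlotinib was -0.32 ± 0.08 with the GFP vector (limma, adjusted p = 0.00322) and -0.30 ± 0.08 with pre-miR-371 (adjusted p = 0.00604). Its 6 probe sets did not all move alike. With the GFP vector 3 of the 6 fell. With pre-miR-371 2 of the 6 did, the main one and the dim 216260_at with a mean of 2.71. The probe set 206061_s_at, with a mean of 5.27, fell by 0.60 with the GFP vector. With pre-miR-371 it had a difference of -0.19 (limma, adjusted p = 0.135 over all probe sets). The second brightest, 213229_at, fell by 0.35 with the GFP vector (adjusted p = 0.00962 over all probe sets) and had a difference of 0.00 with pre-miR-371 (adjusted p = 0.979).

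TARBP2, the double-stranded RNA-binding partner of DICER1, rose by a small amount with the GFP vector. Its log2 values were 7.80, 7.90 and 7.82 in GFP vector DMSO and 8.18, 8.02 and 7.99 in GFP vector erlotinib, a change of 0.22 ± 0.07 (limma, adjusted p = 0.0153). With pre-miR-371 the values were 7.85, 7.89 and 7.81 in DMSO and 7.82, 7.89 and 7.98 in erlotinib, which overlapped (0.05 ± 0.07, adjusted p = 0.617). The call with the GFP vector was lost without GFP vector erlotinib replicate 1, the highest array (0.16). It was also lost with arrays centred on their medians (0.15) and with the mean of both TARBP2 probe sets (0.23). The difference between the lines in this response was -0.17 (95% interval -0.38 to 0.03, limma adjusted p = 0.433).

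The 4 Argonautes went different ways. AGO2 fell the furthest of the 9 genes, AGO3 fell a little, AGO4 rose, and AGO1 did not pass the test. AGO4, AGO1 and AGO3 are neighbours in this order on chromosome 1, with 0 other annotated genes between them, so that adjacent genes of the family differed in their response.

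AGO2 was read by 1 probe set. Its log2 values were 8.22, 8.03 and 8.03 in GFP vector DMSO, 7.77, 7.83 and 7.86 in pre-miR-371 DMSO, 5.99, 6.04 and 5.85 in GFP vector erlotinib, and 6.09, 6.02 and 6.06 in pre-miR-371 erlotinib. The highest mean was that of GFP vector DMSO (8.09 ± 0.11, SD, n = 3), followed by pre-miR-371 DMSO (7.82 ± 0.05), pre-miR-371 erlotinib (6.06 ± 0.04) and GFP vector erlotinib (5.96 ± 0.10). The last pair of groups overlapped, and the gap between DMSO and erlotinib was many times the spread within a group. Erlotinib changed AGO2 by -2.13 ± 0.07 with the GFP vector (95% interval -2.29 to -1.98, limma adjusted p = 1.53e-10), which left 0.228 of the DMSO level. With pre-miR-371 the change was -1.76 ± 0.07 (95% interval -1.91 to -1.61, adjusted p = 1.05e-09), which left 0.295 of the DMSO level.

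AGO3 had values of 7.62, 7.35 and 7.29 in GFP vector DMSO, 7.23, 7.18 and 7.17 in pre-miR-371 DMSO, 7.00, 6.94 and 6.82 in GFP vector erlotinib, and 7.01, 6.79 and 6.87 in pre-miR-371 erlotinib. It fell by 0.50 with the GFP vector (limma, adjusted p = 0.000391) and by 0.30 with pre-miR-371 (adjusted p = 0.0141). The second call was lost without pre-miR-371 erlotinib replicate 2 (-0.25). It was also lost with the mean of the gene's 4 probe sets (-0.09), of which 3 have means under 6.

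AGO4 was the Argonaute that rose. Its main probe set read 6.36, 5.86 and 5.91 in GFP vector DMSO and 5.91, 5.73 and 5.53 in pre-miR-371 DMSO, against 7.35, 7.38 and 7.23 in GFP vector erlotinib and 7.47, 7.19 and 7.27 in pre-miR-371 erlotinib. The erlotinib groups overlapped each other, as did the DMSO groups, and the treatments were clearly apart. The rise was 1.28 ± 0.13 with the GFP vector (2.43-fold, limma adjusted p = 3.78e-06) and 1.59 ± 0.13 with pre-miR-371 (3.01-fold, adjusted p = 6.61e-07). One further probe set, 219190_s_at with a mean of 3.58, rose too (1.14 and 0.89), 222842_at did not pass the test in either line, and the dimmest, 1569408_at with a mean of 2.29, fell by 0.29 with pre-miR-371 (adjusted p = 0.0138 over all probe sets). With the mean of all 4 probe sets the rise was 0.68 with the GFP vector and 0.62 with pre-miR-371.

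AGO1 had log2 values of 8.08, 8.03 and 8.02 in GFP vector DMSO, 7.92, 7.97 and 7.77 in pre-miR-371 DMSO, 8.24, 8.04 and 8.21 in GFP vector erlotinib, and 7.96, 7.91 and 7.98 in pre-miR-371 erlotinib. The erlotinib and DMSO arrays of each line overlapped. The difference was 0.12 with the GFP vector (95% interval -0.03 to 0.27, limma adjusted p = 0.186) and 0.07 with pre-miR-371 (95% interval -0.09 to 0.22, adjusted p = 0.492). With quantile normalization repeated the first of these was 0.17 and passed (adjusted p = 0.0498). A second probe set, 228120_at, rose by 0.33 with pre-miR-371 (adjusted p = 0.00155 over all probe sets).

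TNRC6B, a scaffold that links the Argonautes to the deadenylases, rose in both lines. Its values were 7.24, 7.05 and 7.11 in GFP vector DMSO, 7.23, 7.27 and 7.30 in pre-miR-371 DMSO, 7.60, 7.49 and 7.79 in GFP vector erlotinib, and 8.03, 8.06 and 8.24 in pre-miR-371 erlotinib. The order of the group means was the same as this list, and the neighbours that overlapped were the 2 DMSO groups. Erlotinib changed it by 0.49 ± 0.09 with the GFP vector (1.41-fold, limma adjusted p = 0.000337) and by 0.84 ± 0.09 with pre-miR-371 (1.79-fold, adjusted p = 3.88e-06). Of its 7 probe sets, 5 rose with the GFP vector and 7 with pre-miR-371, by 0.32 to 0.84 in the latter. With the mean of all its probe sets the rise was 0.27 with the GFP vector and 0.56 with pre-miR-371, and neither reached 1.5-fold.

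**Figure D2:**
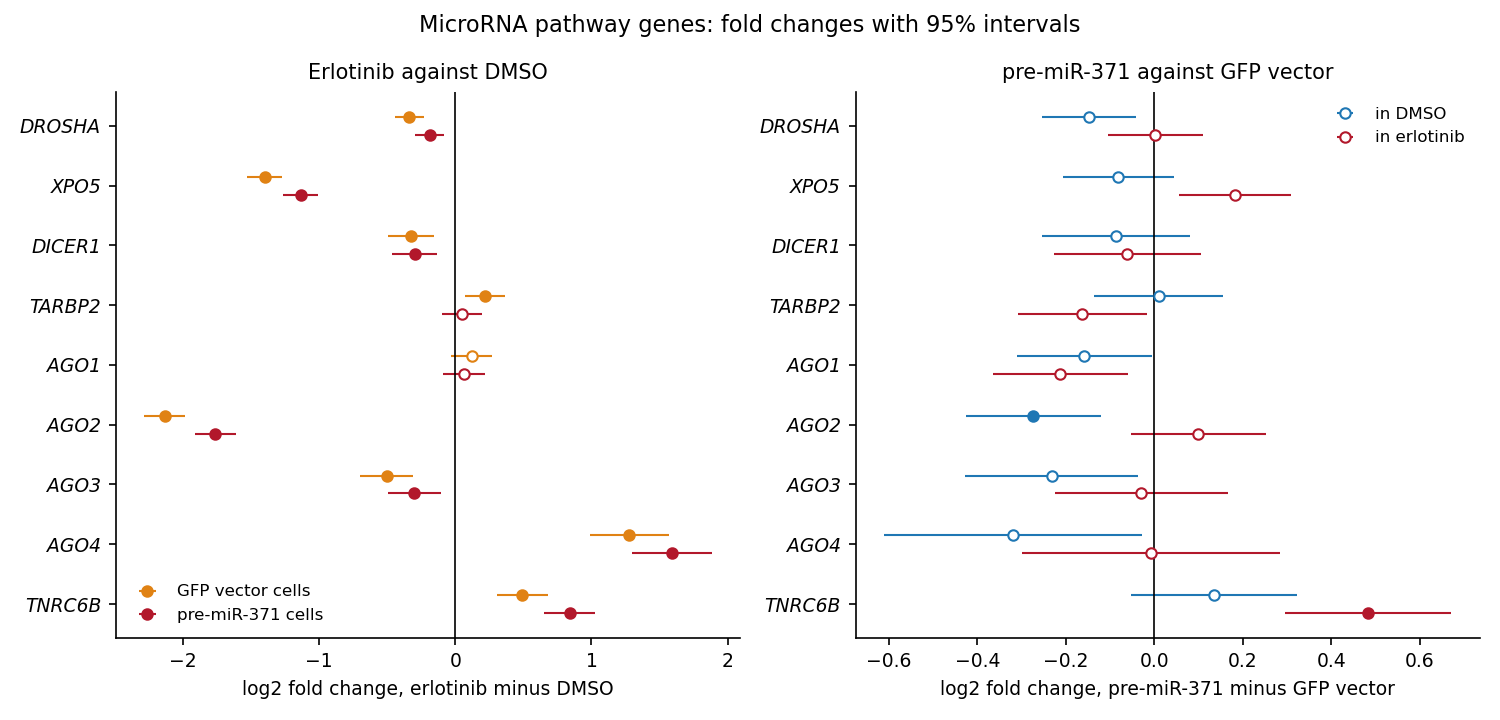
Log2 fold changes (horizontal axes) with 95% intervals for each gene (vertical axis), for erlotinib against DMSO in each line on the left and for pre-miR-371 against GFP vector in each treatment on the right, on axes of different width. Filled points passed an adjusted p under 0.05. On the left AGO2 and XPO5 lie below -1.1 and AGO4 above 1.2 in both lines, and on the right the points that passed are AGO2 in DMSO and TNRC6B in erlotinib.

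Over all probe sets of the 9 genes, 8 of 32 rose and 10 fell with the GFP vector, and 10 rose and 9 fell with pre-miR-371, with p-values adjusted over all probe sets of a single symbol. Of all those probe sets 43.7% and 40.0% changed in either direction. Of the 32, 17 had a mean of at least 6. AGO2 and DROSHA rest on 1 probe set each, and their changes have no second reading on the array. The agreement of several probe sets was complete for XPO5 and, with pre-miR-371, for TNRC6B.

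**Figure D3:**
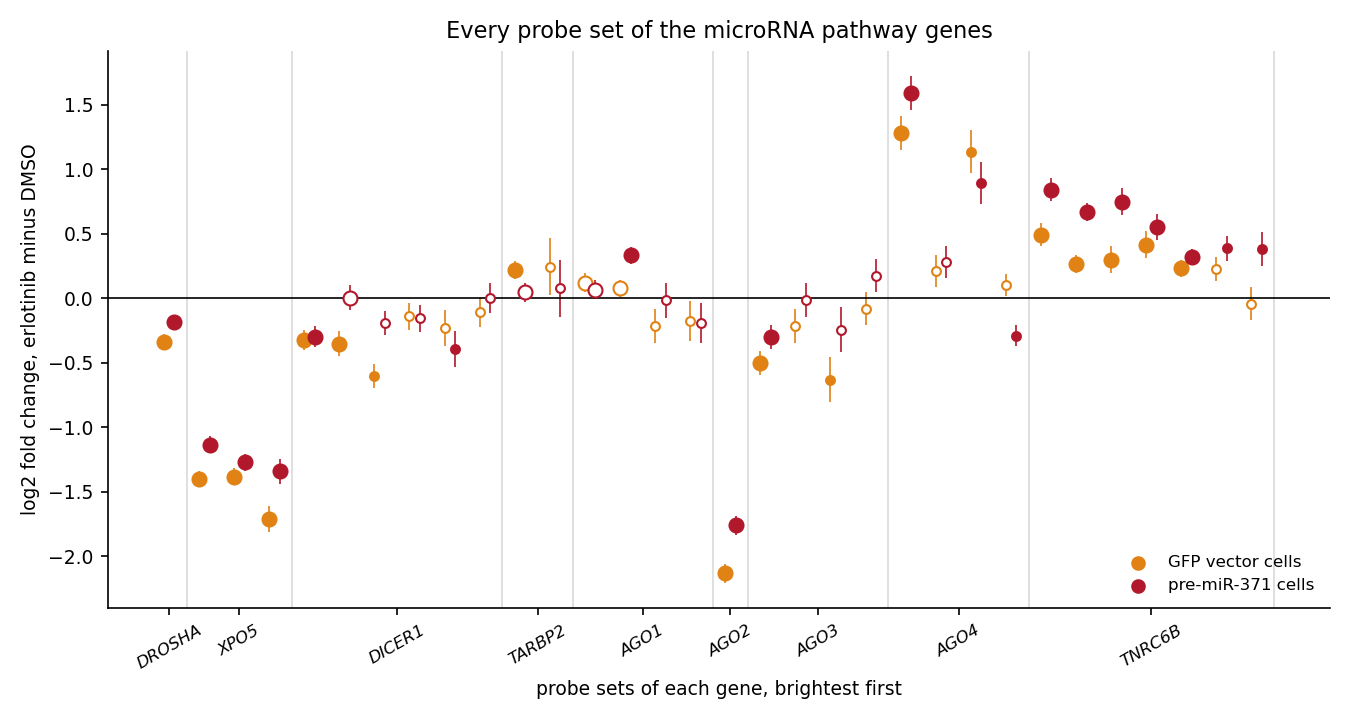
Log2 fold change of erlotinib against DMSO (vertical axis, bars are standard errors) for each of the 32 probe sets, ordered within each gene from the brightest to the dimmest (horizontal axis). Large points have a mean log2 value of at least 6, and filled points passed an adjusted p under 0.05 over all probe sets. The 3 probe sets of XPO5 fell in both lines, and the 7 of TNRC6B rose with pre-miR-371.

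The line comparison sets the line that expresses pre-miR-371 against the control line, for the transcripts that process such a hairpin. The control vector is itself described with a scrambled hairpin, so the comparison cannot say what expressing any hairpin does to these transcripts. None of the 9 genes differed between the lines by 1.5-fold in either treatment. In DMSO only AGO2 passed the test, lower with pre-miR-371 by 0.27 ± 0.07 (0.827-fold, limma adjusted p = 0.0449), where 3.64% of all genes were called lower and 1.62% higher. The call is at the threshold. It was lost without any 1 of 10 of the 12 arrays (all but GFP vector DMSO replicate 3 and GFP vector erlotinib replicate 3), with values from -0.31 to -0.21 over all 12. Repeating quantile normalization reduced it to -0.18 (adjusted p = 0.0861). For 5 of the 9 genes (AGO1, AGO2, AGO3, DROSHA and XPO5) every pre-miR-371 DMSO array was below every GFP vector DMSO array, while 28.4% of all genes did not overlap in this comparison. Genes with a mean of at least 6 had a median of -0.06 in the same comparison, so the values of brighter genes as a whole were a little lower in that line. DROSHA had a difference of -0.15, which did not pass in the main test but did when only genes with a mean of at least 6 were tested (adjusted p = 0.0239), with trend and robust variance (0.0205) and with array weights (0.0146).

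In erlotinib, TNRC6B was higher with pre-miR-371 by 0.48 ± 0.09 (1.40-fold, 95% interval 0.30 to 0.67, limma adjusted p = 0.00371), and no other of the 9 genes passed, where 6.50% of all genes were called higher and 9.46% lower. The call was made without each of the 12 arrays in turn (0.41 to 0.57), and with the mean of all its probe sets the difference was 0.32. Of its 7 probe sets 3 were higher over all probe sets, by 0.34 (229036_at), 0.48 (1558142_at) and 0.53 (230779_at). One dim probe set of DICER1, 206061_s_at with a mean of 5.27, was also higher (0.37, adjusted p = 0.0247 over all probe sets), while the main DICER1 probe set had a difference of -0.06. The arrays did not overlap for 4 of the 9 genes (36.0% of all genes): TNRC6B and XPO5 above, AGO1 and TARBP2 below. XPO5 was 0.18 ± 0.06 higher (adjusted p = 0.0512) and AGO1 0.21 ± 0.07 lower (adjusted p = 0.0583), neither of which passed. XPO5 passed under 5 of the alternative settings (adjusted p = 0.0122 to 0.042), among them both other scalings, and its other 2 probe sets had differences of 0.10 and 0.03. AGO1 passed as lower when only genes with a mean of at least 6 were tested (adjusted p = 0.0169), with trend and robust variance (0.0243) and with array weights (0.0359), and without pre-miR-371 DMSO replicate 3 (0.0479) or GFP vector erlotinib replicate 2 (0.0332). Its next brightest probe sets, 228120_at and 222576_s_at, had differences of 0.09 and 0.14, and with the mean of all its probe sets the difference was -0.04. TARBP2 passed as lower under the limit on the mean alone (-0.16, adjusted p = 0.0453).

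The main probe set of XPO5 had all pre-miR-371 arrays below the GFP vector arrays in DMSO and above them in erlotinib. In its probe set 223057_s_at the lines overlapped in both treatments. In 223055_s_at pre-miR-371 was below in DMSO, and the lines overlapped in erlotinib. The test of the difference between the erlotinib responses was 0.26 for XPO5 (95% interval 0.09 to 0.44, limma adjusted p = 0.14), 0.37 for AGO2 (95% interval 0.16 to 0.59, adjusted p = 0.0854) and 0.35 for TNRC6B (95% interval 0.08 to 0.61, adjusted p = 0.196). In this test 0 of the 9 genes passed with limma, where 2.00% of all genes did. These 3 had an unadjusted p under 0.05, as did 15.0% of all genes. The responses of AGO2 and XPO5 passed as different between the lines when only genes with a mean of at least 6 were tested (adjusted p = 0.0187 and 0.0338) and with array weights (adjusted p = 0.0437 and 0.0422), and that of XPO5 also with trend and robust variance (adjusted p = 0.0429). A smaller response of AGO2 and XPO5 with pre-miR-371 is therefore a result of some settings and not of the main test.

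Around the core genes stands a larger set of partners, 78 genes in 7 role groups, of which 75 were tested. With the GFP vector erlotinib raised 17 of the 75 and lowered 39, and with pre-miR-371 it raised 19 and lowered 33, beside the shares of all genes given above (26.5% and 23.4%, 24.8% and 22.2%). When only genes with a mean of at least 6 were tested, 82.4% and 80.1% of them were called in either direction. The number of partners called is therefore no result about them as a set. The median of the partners was -0.18 with the GFP vector and -0.09 with pre-miR-371. Both responses are given side by side below, first with the GFP vector and then with pre-miR-371, and the log2 fold changes named without a p passed an adjusted p under 0.05 (limma).

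Among 15 nuclear partners, 10 fell and 2 rose in each line. Those that fell with the GFP vector include a dim gene with a mean of 3.13, below the lowest array median of 4.31. NCBP1, the large subunit of the nuclear cap-binding complex, fell by 1.22 and 0.94, and SRRT (ARS2), which joins that complex to miRNA transcripts, fell by 0.80 and 0.57. DDX17, an RNA helicase found with the Microprocessor, rose by 0.56 and 0.54. Of 5 export and Dicer partners, 3 fell and 1 rose in each line. RAN, the GTPase that exportin-5 needs to carry its cargo, fell by 0.84 and 0.69, its exchange factor RCC1 fell by 0.60 and 0.66, and PRKRA (PACT), a second double-stranded RNA-binding partner of DICER1, fell by 0.33 and 0.30. XPO5, RAN and RCC1 fell in both lines, where 23.4% and 22.2% of all genes fell. A joint change of these genes was not tested.

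Of 8 genes for the tailing and decay of miRNAs, 5 rose and 2 fell with the GFP vector. With pre-miR-371 6 rose and 2 fell. Of all genes tested, 26.5% rose and 23.4% fell with the GFP vector, and 24.8% rose and 22.2% fell with pre-miR-371. Whether these 8 genes lean in a direction was not tested. TUT7, which adds uridines to precursor hairpins, rose by 1.03 and 0.78, and the exonuclease XRN1 rose by 1.03 and 0.95. PNPT1, a polynucleotide phosphorylase of mitochondria, fell by 1.47 and 1.34. Of 19 loading chaperones and Argonaute-associated proteins, 12 fell and 3 rose with the GFP vector and 9 fell and 6 rose with pre-miR-371. GEMIN4, found in complexes with AGO2, fell by 1.48 and 1.20. FKBP4, a co-chaperone of HSP90, fell by 1.37 and 1.41, and HSPA4, a member of the HSP70 family, fell by 0.99 and 0.91.

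The paralogs of TNRC6B, which rose, had differences below 0. TNRC6A fell by 0.43 with the GFP vector (adjusted p = 0.00556) and had a difference of -0.21 with pre-miR-371 (adjusted p = 0.154). TNRC6C, a dim gene with a mean of 4.49, had differences of -0.20 (adjusted p = 0.109) and -0.22 (adjusted p = 0.0794), and neither passed. Of 14 deadenylation genes, 6 fell and 4 rose with the GFP vector and 5 fell and 3 rose with pre-miR-371. PAN2, the nuclease that starts the shortening of the tail, rose by 1.63 and 1.30, while the CCR4-NOT subunits CNOT9, which TNRC6 proteins bind, and CNOT10 fell by 0.81 and 0.61 and by 0.72 and 0.73. Of 12 genes of decapping and translational repression, 5 fell and 2 rose with the GFP vector and 4 fell and 1 rose with pre-miR-371. LSM1, a subunit of the ring that binds deadenylated ends, fell by 0.37 and 0.33, and PATL1, which joins that ring to the decapping enzyme, fell by 0.65 and 0.44. DCP1B, a cofactor of the decapping enzyme, rose by 0.72 with the GFP vector and had a difference of 0.24 with pre-miR-371 (adjusted p = 0.0702). Its mean over the 12 arrays was 3.36, below the lowest array median of 4.31, so this is a change of a dim reading.

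**Figure D4:**
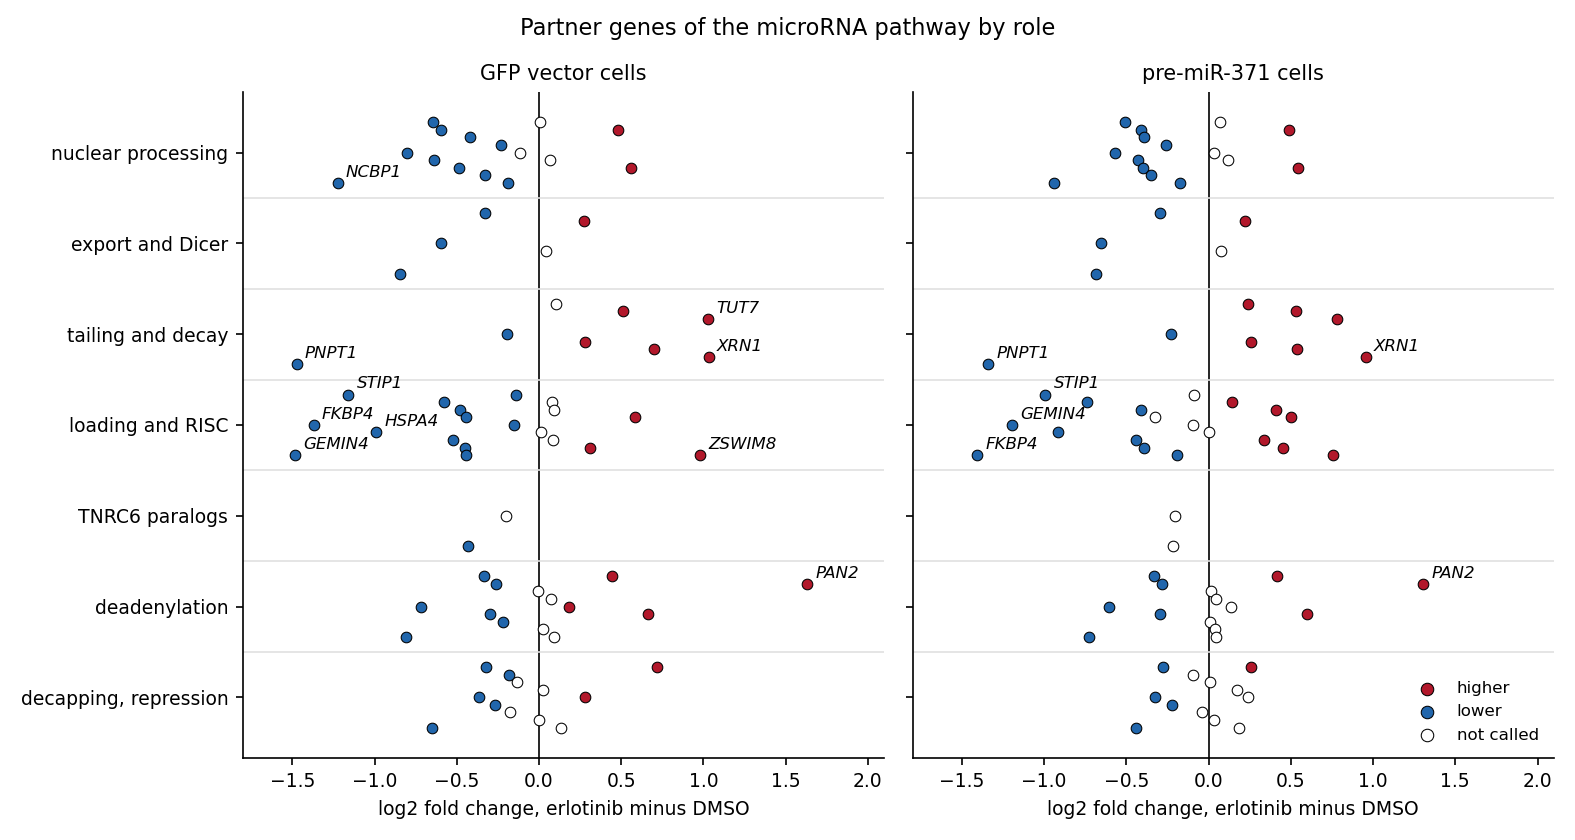
Log2 fold change of erlotinib against DMSO (horizontal axes) for the 75 partner genes tested, by role (vertical axis), with the GFP vector on the left and pre-miR-371 cells on the right. Red and blue points passed an adjusted p under 0.05 as higher and lower, and the genes farthest from 0 are named. Tailing and decay, a role of 8 genes, has 5 red and 2 blue points on the left and 6 and 2 on the right. That split was not tested. Of all genes tested, 26.5% rose and 23.4% fell with the GFP vector, and 24.8% rose and 22.2% fell with pre-miR-371.

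Between the lines, 3 of the 75 partners differed in DMSO: DCP2, the decapping enzyme, was 0.35 higher with pre-miR-371, and FKBP4 and DCP1A were 0.21 and 0.39 lower, where 1.62% of all genes were higher and 3.64% lower. In erlotinib 6 were higher and 6 lower, where 6.50% of all genes were higher and 9.46% lower. These counts are near the shares of all genes and are no result about the partners as a set. DCP2 was again higher (0.50, limma adjusted p = 0.0007), as were the nuclear factors HNRNPA2B1 (0.26), SRSF3 (0.21) and SRRT (0.23). LIMD1, of the Argonaute-associated group, was 0.48 higher. FKBP4 was again lower (0.24). SND1, a nuclease found with the Argonaute complex, was 0.33 lower, TUT7 0.32 lower and PAN2 0.52 lower. The difference of responses passed for 0 of the 75 with limma, where 2.00% of all genes passed. An unadjusted p under 0.05 was reached by 11 of the 75, where 15.0% of all genes reached it. That count is near the share of all genes and is no result about the partners.

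The promoters of XPO5, AGO4 and TNRC6B are shown as those of genes whose main probe set moved past 1.5-fold with pre-miR-371 and that have an entry in the RefSeq promoter table (GRCh38.p14, 250 bases before to 50 after a start). The table had an entry for 9 of the 10 genes, all but AGO2. The letters CACGTG (an E-box), CCAAT and TGTTTAC (a forkhead motif) were searched on both strands, and matches are in capitals. They are found in 7.26%, 34.6% and 3.42% of the 35116 promoters of this length. The windows are chr6:43575989-43576288 on the minus strand for XPO5, chr1:35807766-35808065 on the plus strand for AGO4 and chr22:40044584-40044883 on the plus strand for TNRC6B.
XPO5: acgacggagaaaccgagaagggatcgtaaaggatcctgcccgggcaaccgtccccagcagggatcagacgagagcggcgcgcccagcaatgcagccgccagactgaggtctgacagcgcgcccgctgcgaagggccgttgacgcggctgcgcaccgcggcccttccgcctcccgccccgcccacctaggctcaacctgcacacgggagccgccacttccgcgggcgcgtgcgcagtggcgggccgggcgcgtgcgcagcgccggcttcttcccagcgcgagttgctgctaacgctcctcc
AGO4: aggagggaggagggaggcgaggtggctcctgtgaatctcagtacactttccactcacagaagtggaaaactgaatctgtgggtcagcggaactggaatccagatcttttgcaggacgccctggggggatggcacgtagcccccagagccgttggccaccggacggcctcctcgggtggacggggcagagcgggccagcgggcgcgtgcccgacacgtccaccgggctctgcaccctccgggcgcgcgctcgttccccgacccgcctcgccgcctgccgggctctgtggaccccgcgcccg
TNRC6B: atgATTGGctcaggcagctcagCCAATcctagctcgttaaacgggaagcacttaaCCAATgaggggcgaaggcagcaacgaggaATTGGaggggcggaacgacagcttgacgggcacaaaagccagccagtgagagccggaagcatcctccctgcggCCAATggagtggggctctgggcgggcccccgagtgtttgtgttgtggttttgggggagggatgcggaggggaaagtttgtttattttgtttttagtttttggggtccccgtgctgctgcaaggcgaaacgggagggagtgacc
The TNRC6B window holds CCAAT 5 times, and the windows of XPO5 and AGO4 hold none of the 3 motifs. Of the 9 genes with an entry, 6 hold CCAAT in at least 1 window and 0 hold either of the others. Some of these genes have several windows, so that this count by gene cannot be set against the share of single promoters above. These are matches of letters, with no reading of a factor or of its binding.

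Some genes followed the core genes closely over the 12 arrays, among 9641 others with a mean of at least 6. The likeness is Pearson's r, given without a p, and the arrays share the split between DMSO and erlotinib, which by itself gives a high r to any pair of genes that move with the drug. AGO2 was followed most closely by CTPS1 (r = 0.998), an enzyme of CTP synthesis, and by RGS20 and TRIM14 (both 0.998). XPO5 was followed by DDX39A (0.999), an RNA helicase of mRNA export, TLCD3A (0.999) and NME1 (0.998), a nucleoside diphosphate kinase. AGO4 was followed by SOS1 (0.991), an exchange factor for RAS, IDI1 (0.991), an enzyme of isoprenoid synthesis, and VLDLR (0.991), a lipoprotein receptor. TNRC6B was followed by SMIM30 (0.985), CALD1 (0.978), which encodes caldesmon, and TM2D1 (0.978).

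The genes most like those that moved less were FXR2 (0.982), PLPBP (0.973) and UQCC5 (0.972) for AGO3, RLIG1 (0.968), MEAF6 (0.967) and ZBTB11 (0.967) for DICER1, and ATMIN (0.986), BMP4 (0.984) and ARPP19 (0.981) for DROSHA. TARBP2 had the lowest values, with INTS8 (0.933), CD22 (0.900) and MRPL45 (0.889).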

How the data were processed

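The authors deposited log2 values, 1 for each probe set of each of 12 Affymetrix Hgu133plus2 arrays. Their methods name quantile normalization and their processing notes RMA and affy, with versions not given in the sources used here, so background, scaling and probe summary are already in the values. The number of arrays, 3 per group, limits the precision. Of 54675 probe sets, 41097 had 1 symbol, and the brightest per gene was used (19775 genes). Groups came from the labels. Fold changes, standard errors and p-values came from limma 3.58.1 in R 4.3.3 (lmFit, eBayes, 1 mean per group, 12 arrays), with Benjamini-Hochberg adjustment over all genes and a call at an adjusted p under 0.05. The members and the partner and marker lists were chosen with earlier results of these data known. Named were every member, member probe sets that differ from the main one, up to 3 partners per role with the smallest p, and the 3 genes most like each member. Not all of them are printed. Alternatives were another probe set rule, a filter at a mean of 6, other samples, a replicate block, 2 scalings, other variance models, array weights, each array left out, a fold limit of 1.5 and unadjusted p-values. Figures were drawn with matplotlib 3.10.9. Mature miRNAs and cultures kept longer in drug were not analysed here.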

Additional observations from a re-analysis of the deposited data

How the results depend on the processing

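The changes with erlotinib of AGO2, XPO5, AGO4, TNRC6B and DICER1 in both lines, those of AGO3 and DROSHA with the GFP vector, and the difference of TNRC6B between the lines in erlotinib kept their direction and an adjusted p under 0.05 under every alternative model and without each array. Calls were lost under at least 1 setting for AGO2 between the lines in DMSO, TARBP2 with the GFP vector, and AGO3 and DROSHA with pre-miR-371, and the cause was not tested. Calls at the fold limit of 1.5 numbered 3 and 4 of the 9 genes and 23 and 16 of the 75 partners for erlotinib with the GFP vector and with pre-miR-371, and 0 and 0 for the line comparison in DMSO and 0 and 0 in erlotinib, against 8 and 7, 56 and 52, 1 and 3, and 1 and 12 by adjusted p alone. At an unadjusted p under 0.05, 5 of the 9 genes and 22 partners passed for the lines in DMSO, 4 and 28 for the lines in erlotinib, and 3 and 11 for the difference of responses, where 0 and 0 passed by adjusted p. Of all genes 22.8%, 30.5% and 15.0% passed at that limit, and 5.25%, 16.0% and 2.00% by adjusted p. With only genes of a mean of at least 6 the counts were 2 and 14, 4 and 23, and 2 and 3, where 21.7%, 39.4% and 9.70% of the genes tested passed. With trend and robust variance they were 2 and 12, 3 and 21, and 1 and 7 (11.0%, 21.3% and 5.36% of all genes). Array weights gave 2 and 17 for the lines in DMSO, 3 of the 9 genes in erlotinib, and 2 and 4 for the difference of responses (19.2%, 18.7% and 5.39% of all genes). Repeated quantile normalization gave 0 of the 9 genes in DMSO and 2 in erlotinib, and 3 partners for the difference of responses. Centring on medians gave 2 of the 9 genes in erlotinib. For the lines in DMSO, testing every probe set gave 0 of the 9 genes, and fitting only the groups compared gave 0 of the 9 genes and 1 partner.

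Without each array in turn the counts for the 9 genes were 0 to 1 for the lines in DMSO, 1 to 2 in erlotinib, 7 to 8 and 6 to 7 for erlotinib with the GFP vector and with pre-miR-371, and 0 for the difference of responses. For the partners they were 0 to 5, 6 to 18, 49 to 57, 47 to 53 and 0 to 1. The 0 partners in DMSO came without pre-miR-371 DMSO replicate 3, the 5 without GFP vector DMSO replicate 3, and the 6 in erlotinib without GFP vector erlotinib replicate 1 or 2 or pre-miR-371 erlotinib replicate 3.

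The labels do not say what samples with the same replicate number share. Their deviations from the group means correlated at -0.06 to 0.20, over 0.1 in 7 of 18 pairs. The closest array of another group had the same number in 17 of 36 cases. In each group the upper quartile of the values was highest on replicate 1 and lowest on replicate 3. Whether arrays of the same number were handled together was not tested. With the replicate number as a block 0 of the 9 genes were called for the lines in DMSO, where AGO2 had an adjusted p of 0.0522, and no other call of the 9 genes changed.

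Differences that changed sign were all of genes that did not pass the test. With the mean of all probe sets, the line difference in erlotinib was 0.072 for AGO3 and 0.089 for DICER1, the erlotinib change of AGO1 with the GFP vector was -0.049, and the difference of responses was 0.097 for AGO1 and -0.064 for AGO4. With repeated quantile normalization the line difference in erlotinib was 0.021 for AGO3 and 0.044 for AGO4, and the difference of responses was -0.0095 for DICER1. Centring on medians gave -0.0016 for TARBP2 between the lines in DMSO and 0.0076 for AGO4 in erlotinib, and array weights gave -0.032 for TARBP2 in DMSO. Without each array in turn the line difference in erlotinib ranged from -0.090 to 0.019 for AGO3, from -0.086 to 0.051 for AGO4 and from -0.018 to 0.032 for DROSHA, that of TARBP2 in DMSO from -0.011 to 0.041, and the difference of responses of DICER1 from -0.033 to 0.098.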
